A study of Mus musculus with 2 samples.

Results

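A set of 9 genes of the complement system was followed in adipose tissue macrophages (ATM), the macrophages that live in or enter fat: the C1q chain genes C1qa, C1qb and C1qc, the C3, C4b, Cfb and Cfp genes for components of the cascade, and the receptor genes C3ar1 and C5ar1. They were taken as a list of names, and all 9 matched a row by Ensembl identifier, out of 20330 genes in the table. All 9 passed a filter of at least 1 FPKM in at least 1 library (FPKM, fragments scaled to transcript length and to the number of mapped fragments), which 10297 genes passed in all. The study sorted cells from the visceral fat of C57BL/6 mice by flow cytometry, with antibodies against CD11b and the macrophage antigen that Adgre1 encodes, and sequenced poly(A) RNA, to ask how ATM without hypoxia-inducible factor-1α (HIF-1α) differ from WT. Both genotypes were ApoE-/- and carried Hif-1αfl/fl, that is, Hif1a alleles with loxP sites. The mice labelled KO were hMRP8cre+, with Cre recombinase under the human MRP8 (S100A8) promoter, and those labelled WT were hMRP8cre-. Both genotypes received a high-fat diet with 20% fat for 12 weeks, beginning at an age of 4 weeks. hMRP8cre is active in the myeloid lineage, in neutrophils, monocytes and their progenitors, and not in macrophages alone, and both genotypes lacked ApoE, so neither group was a mouse with normal lipid handling. Each genotype had 1 library, and whether it came from 1 animal or several is not stated. No difference below therefore has a replicate check or a test.

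Complement is a cascade of plasma and tissue proteins that tags particles for uptake and draws in leukocytes. In the classical pathway C1q binds immune complexes or dying cells, and the proteases C1r and C1s then cleave C4 and C2. In the alternative pathway C3b binds factor B, factor D then cleaves the bound factor B, and properdin stabilises the resulting convertase. Both routes cleave C3 and then C5, and the small fragments C3a and C5a, the anaphylatoxins, signal through the receptors C3AR1 and C5AR1. Most complement proteins in blood come from the liver, whereas C1q is made largely by macrophages and dendritic cells, and adipocytes are known for factor D, also called adipsin.

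The libraries are set out here before the values that rest on them. FPKM summed to 585823 in WT and 568329 in KO. The smallest recurring step in the low values put 1 fragment at 0.174 FPKM x kb in WT and 0.134 in KO, and by this estimate the 9 genes rested on 978 (Cfb) to 29527 (C1qb) fragments in WT, with more in KO for each gene. These are estimates and cover counting error only. Both sorted antigens had transcripts in each library, with Adgre1 at 299 FPKM in WT against 239 in KO and Itgam (CD11b) at 128 in both. The 11 macrophage markers in the table summed to 7142 FPKM in WT against 7509 in KO, most of it Lyz2 at 3936 and 4080. The targeted gene was not absent from the library labelled KO, where Hif1a was at 20.97 FPKM against 30.4 in the library labelled WT, and Apoe was at 94.3 FPKM in WT against 117 in KO. These values are over whole transcripts and not the deleted part, so they do not check the labels.

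The C1q genes lie side by side on mouse chromosome 4 in the order C1qb, C1qc, C1qa, all on the minus strand and within 18675 bases in GRCm38 (C1qb from 136880129 to 136886187, C1qc from 136889804 to 136893065, C1qa from 136895917 to 136898803, GENCODE M21), and no other annotated gene lies inside this stretch. The table itself carries identifiers without positions, and the submitters' processing notes name mm9. RefSeq start sites were available for 6 of the 9 genes (C1qb, C1qc, C3, Cfp, C3ar1 and C5ar1). The 250 bases before the RefSeq start are shown for 2 C1q genes, whose levels were among the highest in the table. They are also shown for the 2 receptor genes, whose levels differed in opposite directions between the libraries. RefSeq and GENCODE starts differ, so some windows reach into the GENCODE genes. The C1qc window begins at 136892915, inside a gene that ends at 136893065, and the C3ar1 window at 122856158, just inside 122856161. Most of the C5ar1 window, from 16259339, lies inside a gene that ends at 16259540, as does its match below. Each is read 5′ to 3′ along the gene, from the RefSeq table for GRCm38.p6, and all 4 lie on the minus strand. Capitals mark the letters searched for on both strands, which were ACGTG and GCGTG (cores bound by HIF), GAGGAA (a core bound by PU.1, the main macrophage transcription factor) and TGCTGA (part of the site bound by MAF proteins). ACGTG is also part of the E-box CACGTG. These letters were chosen with the sequences in view.
C1qb, chr4:136886201-136886450: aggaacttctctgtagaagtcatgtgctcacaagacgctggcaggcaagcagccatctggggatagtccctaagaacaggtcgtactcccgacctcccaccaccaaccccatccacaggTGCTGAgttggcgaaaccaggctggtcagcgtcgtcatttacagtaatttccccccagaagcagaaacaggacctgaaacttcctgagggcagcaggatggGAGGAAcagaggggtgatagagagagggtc
C1qc, chr4:136892915-136893164: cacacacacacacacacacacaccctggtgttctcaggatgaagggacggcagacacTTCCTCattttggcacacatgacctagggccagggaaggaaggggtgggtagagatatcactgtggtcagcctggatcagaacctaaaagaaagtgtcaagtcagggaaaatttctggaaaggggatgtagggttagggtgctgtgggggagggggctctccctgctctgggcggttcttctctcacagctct
C3ar1, chr6:122856158-122856407: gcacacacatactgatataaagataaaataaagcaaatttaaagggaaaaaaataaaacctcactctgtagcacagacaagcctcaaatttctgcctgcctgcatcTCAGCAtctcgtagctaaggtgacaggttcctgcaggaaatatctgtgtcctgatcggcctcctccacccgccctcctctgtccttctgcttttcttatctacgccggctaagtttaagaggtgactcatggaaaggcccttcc
C5ar1, chr7:16259339-16259588: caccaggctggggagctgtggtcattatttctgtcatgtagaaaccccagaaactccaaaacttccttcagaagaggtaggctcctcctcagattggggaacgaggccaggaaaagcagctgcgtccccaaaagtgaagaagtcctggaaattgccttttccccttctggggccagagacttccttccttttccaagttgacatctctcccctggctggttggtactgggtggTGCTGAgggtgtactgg
TGCTGA stood in the C1qb window with its first base 131 bases before the start and in the C5ar1 window 17 bases before it, and its reverse complement TCAGCA stood in the C3ar1 window at 144. GAGGAA stood in the C1qb window 30 bases before the start, and its reverse complement TTCCTC in the C1qc window at 193. No match overlapped another. Of all 32851 promoter windows of this length, 16.1% held TGCTGA and 23.3% held GAGGAA on either strand, so such matches are frequent. Neither HIF core was found in these 4 windows, against 38.6% of all windows that held at least 1 of them. Of the other 2 genes with a start site, Cfp held GCGTG on the reverse strand 233 bases before its start, and C3 held TCAGCA at 182 and neither HIF core. A match is a description of letters and not a binding site.

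The 9 genes differed between the libraries by less than 2-fold. None of the 9 was past 3-fold between WT and KO on the log2(FPKM + 1) scale, where 27.3% of all 10297 genes were, and none was past 2-fold, where 45.6% of all genes were. The differences, KO minus WT, ran from -0.29 for C1qc to 0.50 for C5ar1, with a median of -0.03 beside 0.03 over all genes compared. Agreement between the libraries depended strongly on level, so the fairer background is genes of similar FPKM. At a mean of 1000 FPKM or more, where the 3 C1q genes lay, 3.16% of 95 genes were past 3-fold. At 100 to 1000 FPKM, where C4b, Cfp, C3ar1 and C5ar1 lay, the share was 1.99% of 653 genes, and at 10 to 100 FPKM, where C3 and Cfb lay, 14.6% of 4239 genes. Past 2-fold the shares in these ranges were 7.37%, 7.81% and 30.4%. A count of 0 among highly expressed genes is thus close to what other genes at 100 FPKM or more showed.

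**Figure D1:**
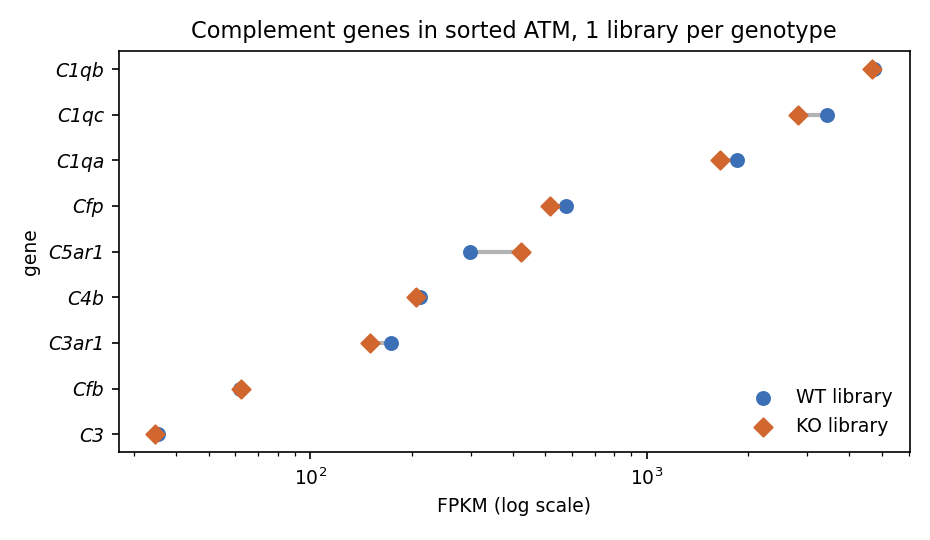
FPKM (log axis) of the 9 complement genes in the WT library (circles) and the KO library (diamonds), 1 library per genotype and no error bars. The genes keep the same order in both libraries, from C3 at 35.3 and 34.6 FPKM to C1qb at 4726 and 4663, and the widest gap is that of C5ar1.

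C1q, the recognition unit of the classical pathway, is built from the products of C1qa, C1qb and C1qc in equal numbers. C1qb (ENSMUSG00000036905) was the most abundant of the 9, at 4726 FPKM in WT against 4663 in KO, which ranked it 12th and 13th among all genes. C1qc (ENSMUSG00000036896) was at 3437 FPKM in WT against 2809 in KO, ranks 18 and 20. C1qa (ENSMUSG00000036887) was at 1849 FPKM in WT against 1648 in KO, ranks 38 and 47. All 3 chains were thus among the 50 highest genes of each library, and all 3 were lower in KO, with changes of -18.3% for C1qc, -10.9% for C1qa and -1.33% for C1qb. With both libraries scaled to the same summed FPKM, C1qb turned slightly higher in KO, whereas C1qa and C1qc stayed lower.

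The chains together came to 10012 FPKM in WT against 9119.5 in KO, which was 1.71% and 1.60% of all FPKM. The difference of the sums was -0.13 on the log2 scale. Their proportions moved little. C1qb made up 47.2% of the C1q sum in WT and 51.1% in KO, C1qc 34.3% and 30.8%, and C1qa 18.5% and 18.1%. C1qb was 2.56 times C1qa in WT and 2.83 times in KO, so transcripts of the chains were not at equal FPKM in either library. Words of 50 bases from the C1qa transcript occurred in neither C1qb nor C1qc, and none from C1qb in C1qc, so the chains share no stretch of that length. Among the 95 genes at a mean of 1000 FPKM or more, 38.9% had a difference at least as large as that of C1qc, 53.7% as that of C1qa and 94.7% as that of C1qb.

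**Figure D2:**
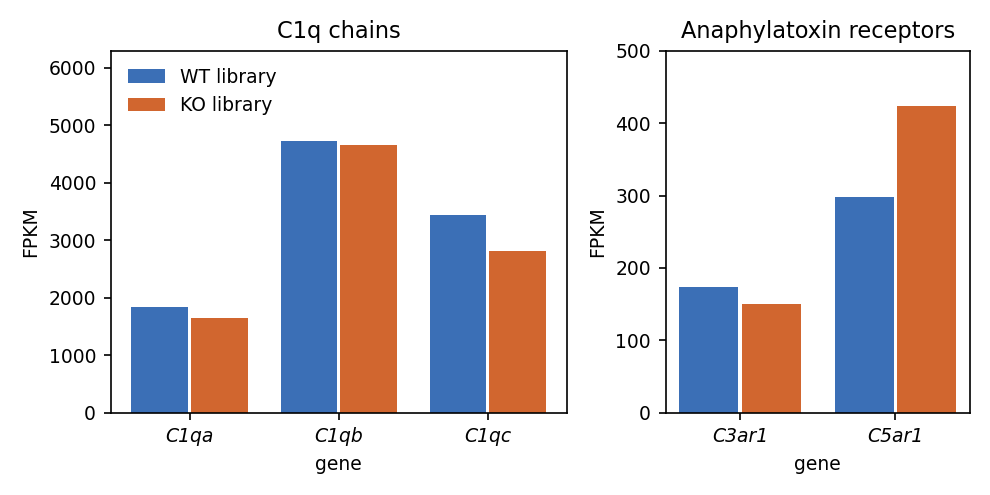
FPKM (linear axes from 0) of the C1q chains on the left and of the anaphylatoxin receptors on the right, WT in blue and KO in orange, 1 library per bar and no error bars. All 3 chains are slightly lower in KO, while C3ar1 is lower (173 against 150.5 FPKM) and C5ar1 higher (298 against 423 FPKM).

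Of the other components, C4b (ENSMUSG00000073418, chromosome 17, 34728380 to 34743882) encodes C4, which C1s cleaves and whose larger fragment attaches to surfaces. It was at 211 FPKM in WT against 207 in KO, a difference of -0.03. Its neighbour C4a is a close copy, and 35.2% of the 50-base words of the C4b transcript also occurred in C4a, so reads could have been split between them. C4a was listed at 1.09 FPKM in WT against 0.0242 in KO, far below C4b.

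C3 (ENSMUSG00000024164, chromosome 17, 57203970 to 57228136), on which all routes converge, was the lowest of the 9. It was at 35.3 FPKM in WT against 34.6 in KO, a difference of -0.03. Cfb (ENSMUSG00000090231, chromosome 17, 34856374 to 34862518) encodes factor B, the protease subunit of the alternative C3 convertase, and was at 61.9 FPKM in WT against 62.1 in KO. This was the smallest difference of the 9, 0.0047 on the log2 scale. The annotation places Gm20547 over Cfb on the same strand, and that gene was not analysed here. Cfp (ENSMUSG00000001128, chromosome X, 20925454 to 20931555) encodes properdin, which is made by myeloid cells and stabilises the convertase. It was the highest alternative pathway gene, at 577 FPKM in WT against 516 in KO, a difference of -0.16.

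C4b stood at 5.98 times C3 in both libraries. Cfp was 16.3 times C3 in WT and 14.9 times in KO. C1qb, C3, C4b and Cfb lay within 0.1 of 0 on the log2 scale, 4 of the 9 genes, and 7.88% of all genes did so. The share was 38.9% at a mean of 1000 FPKM or more, 18.8% at 100 to 1000, 9.72% at 10 to 100, where both C3 and Cfb lay, and 4.99% at 1 to 10. This limit of 0.1 was chosen after the values had been seen. The sign of these differences depended on the scaling, since C1qb, C3 and C4b became positive with equal summed FPKM and Cfb became negative with equal upper quartiles.

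The anaphylatoxin receptors differed in opposite directions. C5ar1 (ENSMUSG00000049130, chromosome 7, 16246743 to 16259540), which encodes the main receptor of C5a on myeloid cells, was at 298 FPKM in WT against 423 in KO, a ratio of 1.42 and the largest difference of the 9. C3ar1 (ENSMUSG00000040552, chromosome 6, 122847138 to 122856161), the receptor of C3a, was at 173 FPKM in WT against 150.5 in KO, a difference of -0.20. C5ar1 was 1.72 times C3ar1 in WT and 2.81 times in KO. These directions held under both other scalings. Of 653 genes at 100 to 1000 FPKM, 30.2% had a difference at least as large as that of C5ar1 and 65.5% as that of C3ar1. The middle 95% of the genes in this range ran from -1.36 to 1.03, so both receptors lay well inside it. C5ar2, the second C5a receptor, was at 6.78 FPKM in WT against 8.71 in KO.

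C5ar1 is also expressed by neutrophils, and neutrophil markers differed between the libraries. The table held 9 such markers, and 6 of them passed the filter. All 6 were higher in KO, as were 5280 of all 10297 genes. Of the 6, 3 were past 3-fold higher, where 13.6% of all genes were. Of these 3, Mpo and Ngp had a mean between 1 and 10 FPKM, where 45.6% of genes were past 3-fold in either direction. The third, S100a9, lay at 100 to 1000 FPKM, where 1.99% were. The sum of the 6 was 143 FPKM in WT against 499 in KO. S100a9 was at 63.4 FPKM in WT against 301 in KO, and S100a8 at 73.3 and 182. Cxcr2 was at 5.83 FPKM in WT against 7.96 in KO, a ratio of 1.37, and Retnlg at 0.385 and 2.46. Mpo and Ngp were listed at 0 in WT against 2.29 and 2.61 FPKM in KO, whereas Ltf, Camp and Elane were listed at 0 in both. The part of neutrophil RNA in the C5ar1 difference was not tested. Here as elsewhere, in RNA from many cells, a change in the number of cells of a type and a change in RNA per cell cannot be told apart.

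**Figure D3:**
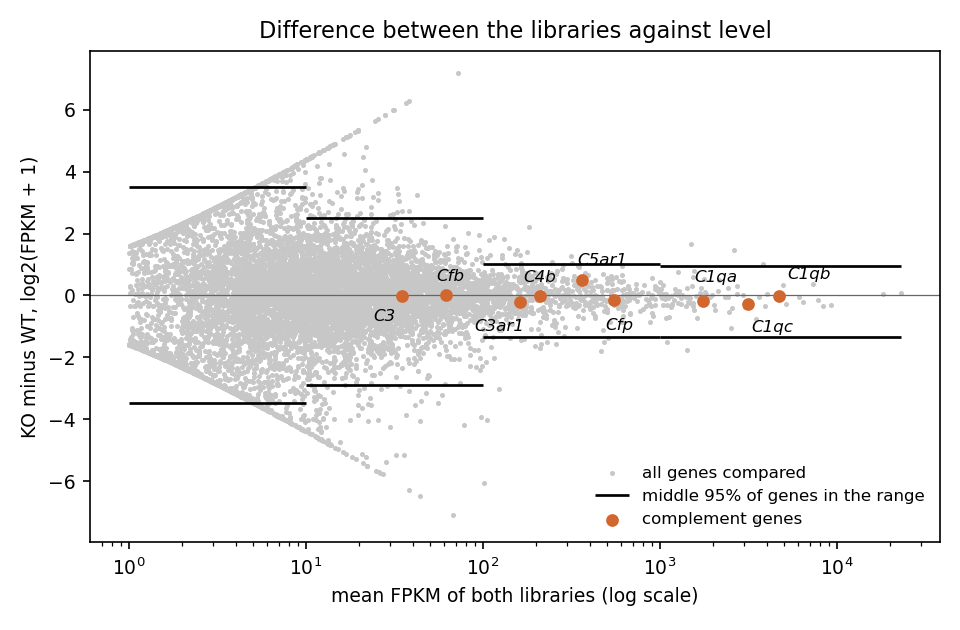
Difference between the libraries, KO minus WT on log2(FPKM + 1), against the mean FPKM of both (log axis), with each grey point a gene of mean FPKM of at least 1, the complement genes in orange, and black lines marking the middle 95% of genes in each range of level. The spread narrows as the level rises, and the 9 genes lie near 0 and inside the lines, C5ar1 being the farthest from 0 at 0.50.

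The order of levels was the same in both libraries: C1qb, C1qc, C1qa, Cfp, C5ar1, C4b, C3ar1, Cfb and C3. The narrowest step in WT was C4b over C3ar1, 1.22 times there and 1.37 in KO, and in KO it was Cfp over C5ar1, 1.22 times there and 1.94 in WT. Without replicates it cannot be said which neighbours in this order differ beyond their spread. By Euclidean distance of log2(FPKM + 1) over both libraries, the gene nearest to C1qa was Tpt1 (1817 FPKM in WT against 1666 in KO, distance 0.03), followed by the ribosomal protein genes Rps15 and Rpl10. The nearest to C3 were Isca2, Rasa4 and Rap1gds1. Those nearest to C3ar1 were Man2b1 (178 and 152 FPKM, distance 0.04), Mpeg1 and Aes, and those nearest to C5ar1 were Cd36 (288 and 418 FPKM, distance 0.05), Rpl3 and Timp2. With 2 libraries such likeness says only that a pair of values is similar.

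The rest of the complement system was then described from lists of 51 genes, the 9 included, of which 27 passed the filter. Of these 27 genes, 4 were past 3-fold higher in KO and 3 past 3-fold lower, where 13.6% and 13.7% of all genes were. None of these 7 was among the 9 genes, and 6 of them had a mean between 1 and 10 FPKM, where 45.6% of genes were past 3-fold and 60.6% past 2-fold. The other, C1ra, had a mean of 13.5 FPKM, in the range where 14.6% were past 3-fold. The median difference over the 27 was -0.03. A further 23 of the 51 were listed at 0 in both libraries, a share like that of all genes, 9123 of 20330. Cd55 was below the filter. A value of 0 need not mean that a gene was off, since 161 genes at 10 FPKM or more in KO were listed at 0 in WT and 138 the other way round.

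In the classical pathway 9 of 10 genes passed the filter. C1ra, a C1r protease gene, was at 4.94 FPKM in WT against 22.1 in KO, past 3-fold higher, while its copy C1rb was at 3.74 FPKM in WT but listed at 0 in KO. The copies shared 48.0% of the 50-base words of the C1ra transcript, so their split is uncertain, and together they were at 8.68 FPKM in WT against 22.1 in KO, which is not past 3-fold. C1s1, for the C1s protease, was at 6.00 FPKM in WT but listed at 0 in KO, and 24.3% of its words occurred in C1s2, listed at 0 in both. C2, the partner of C4 in the classical convertase, was at 8.32 FPKM in WT against 1.84 in KO, past 3-fold lower. The proteases and C2 thus lay far below the C1q genes in both libraries.

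In the lectin pathway, which recognises sugars instead of antibodies, 7 of 9 genes were listed at 0 in both libraries, among them Mbl1, Mbl2, Masp1 and Masp2. Over all genes, 9123 of 20330 were. Fcna, which encodes the macrophage recognition protein ficolin A, was at 234 FPKM in WT against 466 in KO, a ratio of 1.99 and a difference of 0.99, just inside 2-fold on this scale, and 1.04, just past it, with equal summed FPKM. Of genes at 100 to 1000 FPKM, 7.81% were past 2-fold. The scavenger receptor gene Colec12 was at 11.1 FPKM in WT against 9.29 in KO. Of the alternative pathway, Cfd (factor D) was listed at 0 in WT against 7.11 FPKM in KO, and the other 3 genes are described above. Cfd is a product of adipocytes. Of 6 adipocyte markers, Adipoq, Plin1 and Retn were listed at 0 in both libraries, Lep was listed at 0 in WT against 1.60 FPKM in KO, Lipe was at 16.8 and 20.1, and Cidec was at 5.83 in WT but listed at 0 in KO. Their part in the Cfd value was not tested.

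Of the terminal components, which form the membrane attack pore, Hc (C5), C8a, C8b, C8g and C9 were listed at 0 in both libraries. C6 was at 17.8 FPKM in WT against 10.6 in KO, and C7 was listed at 0 in WT against 4.64 FPKM in KO. Of the soluble regulators, Serping1, for the C1 inhibitor, was at 2.03 FPKM in WT against 0.618 in KO, and Clu (clusterin) at 1.36 and 2.57. Cfi, C4bp, Vtn, Cpn1 and Cpn2 were listed at 0 in both libraries. Of the membrane regulators only Cr1l passed the filter. It encodes Crry, which protects mouse cells from their own complement, and was at 84.9 FPKM in WT against 35.1 in KO, a ratio of WT to KO of 2.42 and a difference of -1.25, past 2-fold but not past 3-fold, where 30.4% of genes at 10 to 100 FPKM were past 2-fold. Cd46, Cd55b, Cd59a and Cd59b were listed at 0 in both.

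Among the other receptors, the products of Itgam and Itgb2 pair as complement receptor 3, and Itgam was at 128 FPKM in both libraries while Itgb2 was at 188 FPKM in WT against 216 in KO. Itgax, the partner of Itgb2 in complement receptor 4, was at 35.5 FPKM in WT against 26.996 in KO. Vsig4, a complement receptor of resident macrophages that binds C3b, was at 0.127 FPKM in WT, about 1 estimated fragment, and at 9.65 FPKM in KO, about 104 estimated fragments, and was past 3-fold higher. Cr2, the receptor of B cells, was listed at 0 in both. Of other macrophage genes, Mertk was at 38.01 FPKM in WT against 88.1 in KO, Cd163 at 130 and 214, and Fcgr1 at 49.3 and 21.9.

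**Figure D4:**
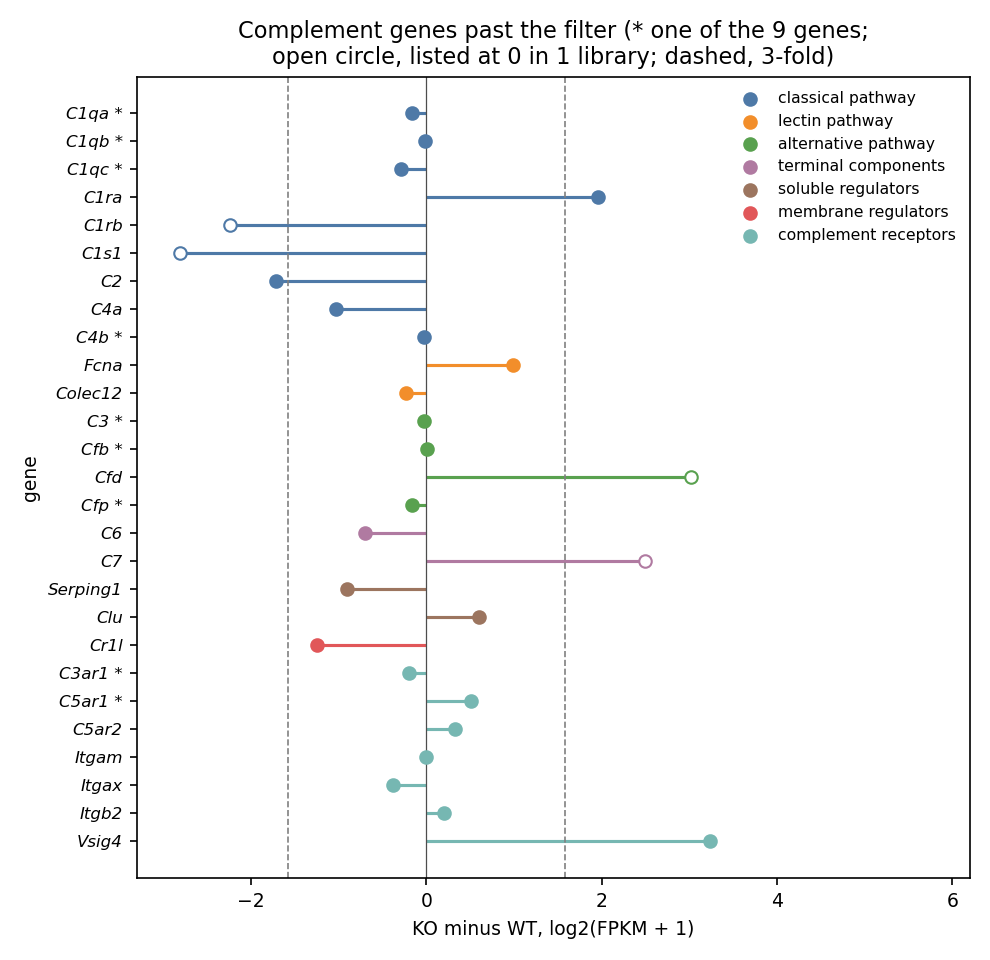
Difference between the libraries (KO minus WT, log2(FPKM + 1)) for the 27 complement genes past the filter, coloured by list, with an asterisk for each of the 9 genes, open circles for genes listed at 0 in 1 library and dashed lines at 3-fold. The 9 genes sit close to 0, and the 7 genes beyond the dashed lines are Vsig4, Cfd, C7, C1ra, C2, C1rb and C1s1.

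Stromal cells of fat also make C3, C4b, Cfb, C1r and C1s, so markers of other cells were set beside these genes. Fibroblast markers were low, at a sum of 52.2 FPKM in WT against 95.3 in KO over 8 genes, most of it from Dcn at 35.03 and 62.3, and 2 of the 7 that passed the filter were past 3-fold higher in KO and 1 past 3-fold lower, all 3 at a mean between 1 and 10 FPKM, where 45.6% of genes were past 3-fold in either direction. Of 7 mesothelial markers 6 were listed at 0 in both libraries, beside 9123 of all 20330 genes. Upk3b was listed at 0 in WT against 7.84 FPKM in KO. Adipocyte markers summed to 22.6 FPKM in WT against 21.7 in KO, and endothelial markers to 17.7 and 16.03. C3, C4b and Cfb were at like levels in both libraries while the fibroblast sum was higher in KO, and the part of these cells in the complement values was not tested.

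Monocyte markers summed to 563 FPKM in WT against 613 in KO, almost all of it F13a1, while Ly6c2 was at 9.39 FPKM in WT but listed at 0 in KO and Ccr2 was at 29.4 and 9.78. Dendritic cell markers, which matter because dendritic cells also make C1q, summed to 125 FPKM in WT against 140.3 in KO, most of it Cd209a, while Zbtb46 was listed at 0 in WT against 9.45 FPKM in KO, and Flt3, Xcr1, Clec9a and Ccr7 were at 1.65 FPKM or less in both libraries. B cell, T cell, eosinophil and mast cell markers summed to at most 7.45 FPKM in either library. Cd3e, Cd3d, Cd3g, Siglecf, Epx and Cpa3 were listed at 0 in both. The eosinophil marker Ccr3 was listed at 0 in WT against 7.45 FPKM in KO, the B cell marker Cd79b was listed at 0 in WT against 5.52 in KO, Cd79a was at 2.4998 and 0.222, and Cd4 was at 5.35 and 2.07.

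**Figure D5:**
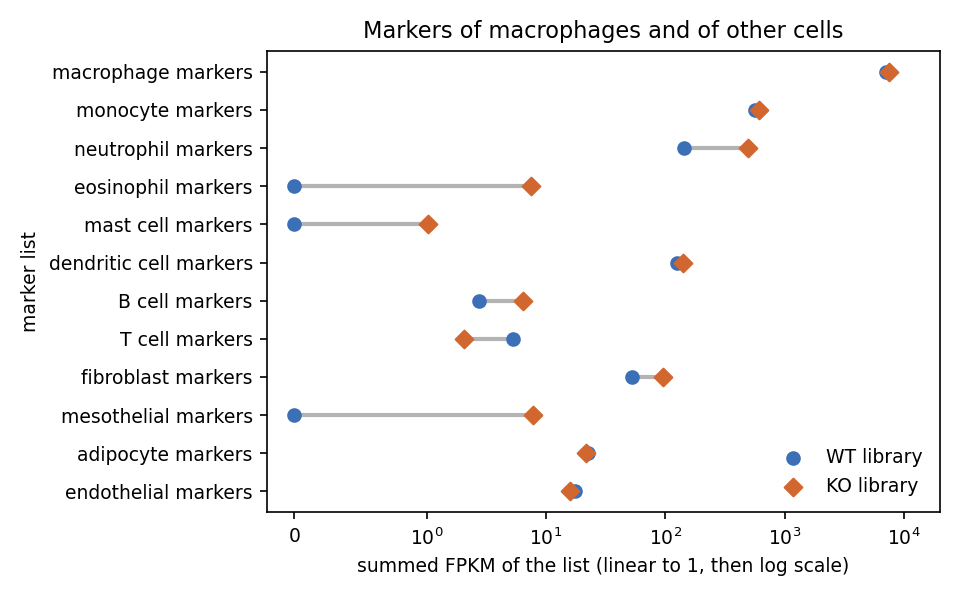
Summed FPKM (linear to 1, then log) of each marker list in the WT library (circles) and the KO library (diamonds). Macrophage markers exceed every other list in both libraries at 7142 and 7509 FPKM, most of it Lyz2, and the neutrophil sum is higher in KO (499 against 143 FPKM).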

How the data were processed

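RNA sequencing of sorted ATM gave 1 WT and 1 KO library. The authors deposited a single table of FPKM values, already divided by transcript length and library size, so they are not counts, and count models were not applied. The submitters' processing notes name mm9, CASAVA 1.8.2, TopHat2 2.0.9 and Cufflinks 2.2.1, and the annotation and filters are not given in the sources used here. The mutant column was assigned to KO, the only library with a mutant genotype in its labels. The library protocol names no step that marks strand.

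Of 20749 rows, 401 that repeated another row in full were dropped and 18 further rows of an identifier already present were summed, which left 20330 genes, 98.5% with a symbol in GENCODE M21. Differences were taken as KO minus WT of log2(FPKM + 1) over the 10297 genes that reached 1 FPKM in either library, and a gene was counted at 3-fold on this scale, which understates low genes. No p-value was computed. The fragments behind a value were estimated from the smallest recurring FPKM x kb of genes with a single transcript, with the length of the longest coding transcript. The 9 genes, the gene lists and the alternatives were chosen with earlier results of these data known. The rule for named genes took the 9, the genes of the complement lists and of a list of C1q-binding surface proteins that passed the filter, the highest markers of each cell type, Hif1a and Apoe, and the 3 genes nearest to each of C1qa, C3, C3ar1 and C5ar1. List genes below the filter, the other markers and Adgre1 fall outside this rule and were named after their values were seen. A gene of the soluble regulator list is not reported here and is left out of the counts. Python 3.11.15, numpy 2.4.6 and pandas 2.3.3 were used.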

Additional observations from a re-analysis of the deposited data

How the results depend on the processing

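No paired analysis was possible because with a single library per genotype there are no pairs. Values were recomputed with pseudocounts of 0.1 and 0.01, without the filter, with 1 FPKM required in both libraries, with scaling to the same summed FPKM or to the same upper quartile, with a 2-fold threshold, and by keeping the highest row of an identifier. None of the 9 genes was past the threshold under any of them, and none of their 63 recomputed differences moved by 1.5-fold or more, although equal summed FPKM put 5 of the 9 above 0 and 4 below, against 2 and 7 as reported. The number of complement genes past 3-fold went from 7 to 2 when both libraries had to reach 1 FPKM, because genes low or at 0 in a library were then left out. Of 119 recomputed differences of the other complement genes 14 moved by more than 1.5-fold, all with a smaller pseudocount and in genes under 1 FPKM in a library. The difference of Itgam, close to 0, changed sign with equal summed FPKM, from -0.0017 to 0.042.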

Other observations

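Proteins reported to bind C1q at the cell surface were described from a list of 7 genes, of which 6 passed the filter. None of the 6 was past 3-fold, where 27.3% of all genes were, 45.6% of those at a mean between 1 and 10 FPKM, 14.6% of those at 10 to 100 and 1.99% of those at 100 to 1000. Calr, which encodes calreticulin, a C1q-binding chaperone that can sit on dying cells, was at 627 FPKM in WT against 584 in KO. Its partner receptor gene Lrp1 was at 112 FPKM in WT against 88.2 in KO. Cd93 was at 85.6 and 111 FPKM, C1qbp at 11.5 and 14.5, and Scarf1 at 4.02 and 4.99. Lair1, an inhibitory collagen receptor that also binds the collagen-like part of C1q, was at 33.7 FPKM in WT against 14.3 in KO, a difference of -1.18, the only one of the 6 past 2-fold. Megf10 was listed at 0 in both libraries. Lair1 was lower in KO by a ratio of 2.35 and Cr1l by 2.42, both at a mean of 10 to 100 FPKM, where 30.4% of all genes were past 2-fold.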
